A study of Mus musculus with 4 samples.

Results

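The mRNAs of the corticosteroid receptors, of the chaperones that hold them ready for hormone, and of 3 genes that report on or supply glucocorticoid action were compared between CPEB3 and control immunoprecipitates of mouse forebrain. The members are 10 genes chosen by name: the receptors Nr3c1 and Nr3c2, the HSP90 chaperones Hsp90aa1 and Hsp90ab1, the co-chaperones Ptges3, Fkbp4 and Fkbp5, the glucocorticoid-induced genes Tsc22d3 and Sgk1, and the steroid enzyme Hsd11b1. The choice was made with earlier results of these data known, so counts of members against the whole array describe only these genes. They are covered by 14 of the 55681 distinct probes of the array, with 4 probes for Ptges3, 2 for Nr3c1 and 1 for each other gene. The tested arrays hold RNA that came down with a CPEB3 antibody (CPEB3 IgG, 2 arrays), and the arrays they are set against hold RNA that came down with a control antibody (control IgG, 2 arrays). All arrays used cortex and hippocampus lysate of male C57BL/6 mice aged 8 weeks, which was kept with the antibody beads for 3 h. C57BL/6 is an inbred laboratory strain. CPEB3 is an RNA-binding protein that acts on the translation of its target mRNAs in neurons. The labels name no manipulation of the mice, and they do not say how many animals were pooled or whether the replicates are separate lysates, and the p-values therefore speak only to how these arrays scatter, which may be technical scatter. No array of the starting lysate was analysed here, so a value says how an mRNA's share of the precipitate differs between the antibodies, and not how much of it the tissue holds. In whole lysate, fewer cells of a type and less RNA per cell cannot be told apart.

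Glucocorticoid hormone crosses the cell membrane and binds the glucocorticoid receptor, a transcription factor encoded by Nr3c1, or with higher affinity the mineralocorticoid receptor encoded by Nr3c2. Hippocampal neurons are known for carrying both receptors. Without hormone the receptor sits in the cytoplasm in a complex with an HSP90 dimer, the co-chaperone p23 (Ptges3) and an immunophilin. FKBP51 (Fkbp5) in that complex lowers hormone binding, whereas FKBP52 (Fkbp4) favours hormone binding and transport to the nucleus. Among the genes that the bound receptor switches on are Fkbp5 itself, Tsc22d3, which encodes the leucine zipper protein GILZ, and the kinase gene Sgk1. The enzyme encoded by Hsd11b1 regenerates active glucocorticoid inside the cell.

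CPEB proteins are known for binding uridine-rich RNA, so the most thymine-rich stretch of some member probes is shown here. Each is the 30 bases of the probe with most T (the first such stretch in a tie). The probes read 5′ to 3′ like the mRNA, coordinates are mm9, and capitals mark runs of at least 3 T. Tsc22d3, Sgk1 and Fkbp5 stand for members that lay higher with CPEB3 IgG, Hsp90aa1, Hsp90ab1 and Fkbp4 for members that lay lower, and Ptges3 for a gene with several probes. Both Nr3c1 probes, Nr3c2, Hsd11b1 and Ptges3 at 867 and 1083 are not shown. Of these, Ptges3 at 867, which lay lower, was 36.7% T with a longest T run of 6. Nr3c1 at 4827, which lay higher, was 26.7% T with a longest run of 3.
Tsc22d3 (chrX:137074106-137074135, minus strand): aTTTggaTTTggaTTTTTcaaatgtagctt
Sgk1 (chr10:21719524-21719553, plus strand): tctgtacattgggttataacactagatatt
Fkbp5 (chr17:28536063-28536092, minus strand): aaaatcaTTTagatgcaTTTTgtgttcctt
Hsp90aa1 (chr12:111929268-111929297, minus strand): aaataacagtgcccaatcacattctgcTTT
Hsp90ab1 (chr17:45704788-45704817, minus strand): gcagggttgggtgttatgtattgtggTTTT
Fkbp4 (chr6:128380531-128380560, minus strand): TTTcacacgtacatcagaatgttaaTTTat
Ptges3, probe at 1593 (chr10:127513980-127514009, plus strand): aaTTTatgttcatgacagtggggaTTTTTT
Ptges3, probe at 1894 (chr10:127514267-127514296, plus strand): tgttgtgacttgactgaaataaaagtgaat

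Over their 60 bases the member probes were 16.7% (Nr3c2) to 38.3% T (Tsc22d3 and Ptges3 at 1593), with a median of 29.2%, against a median of 28.3% and quartiles of 23.3% and 35% over all 40616 probes tested. Neither form of the cytoplasmic polyadenylation element searched for, TTTTAT and TTTTAAT, occurs in any of the 14 probes as printed, where 3.71% and 0.901% of all probes tested hold them. On the other strand TTTTAT is in 1 member probe, Ptges3 at 1894, and TTTTAAT in 0, against 5.37% and 1.34% of all probes. The polyadenylation signal AATAAA is in 1 member probe, Ptges3 at 1894, and its reverse complement in 1, Fkbp4, against 11% and 3.78% of all probes. The AATAAA and the other-strand TTTTAT of Ptges3 at 1894 are overlapping bases. Since the probes read like the mRNA, a match on the other strand is not that motif in the transcript. Binding of CPEB3 to any of these motifs was not tested. A probe covers a small part of its mRNA, so these counts describe the probes and not the transcripts. Annotation of exons and untranslated regions on mm9 was not used here.

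Of the 14 member probes, 3 were higher and 3 lower with CPEB3 IgG after adjustment over all probes tested (limma, adjusted p under 0.05), and 8 did not pass. The higher probes belong to Tsc22d3, Sgk1 and Nr3c1, and the lower probes to Hsp90aa1, Fkbp4 and Ptges3. Each of the 14 probes cleared the background on all 4 arrays by the scanner software's own test, and 0 of their spots were saturated. Over the whole array 15.8% of the 40616 probes were called higher and 18.9% lower, so the members' shares stand near the background. The median log2 difference was −0.37 over the member probes and −0.19 over all probes tested, and the medians of its absolute size were 0.62 and 0.60. The 2 groups did not overlap at 13 of the 14 member probes, as at 71.3% of all probes. With 1 probe a gene, the brightest, 4 member genes were higher and 2 lower of 10, against 19.2% and 20.2% of 27687 genes. The added gene was Fkbp5, and Ptges3, which had been called lower at a dimmer probe, dropped out.

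**Figure D1:**
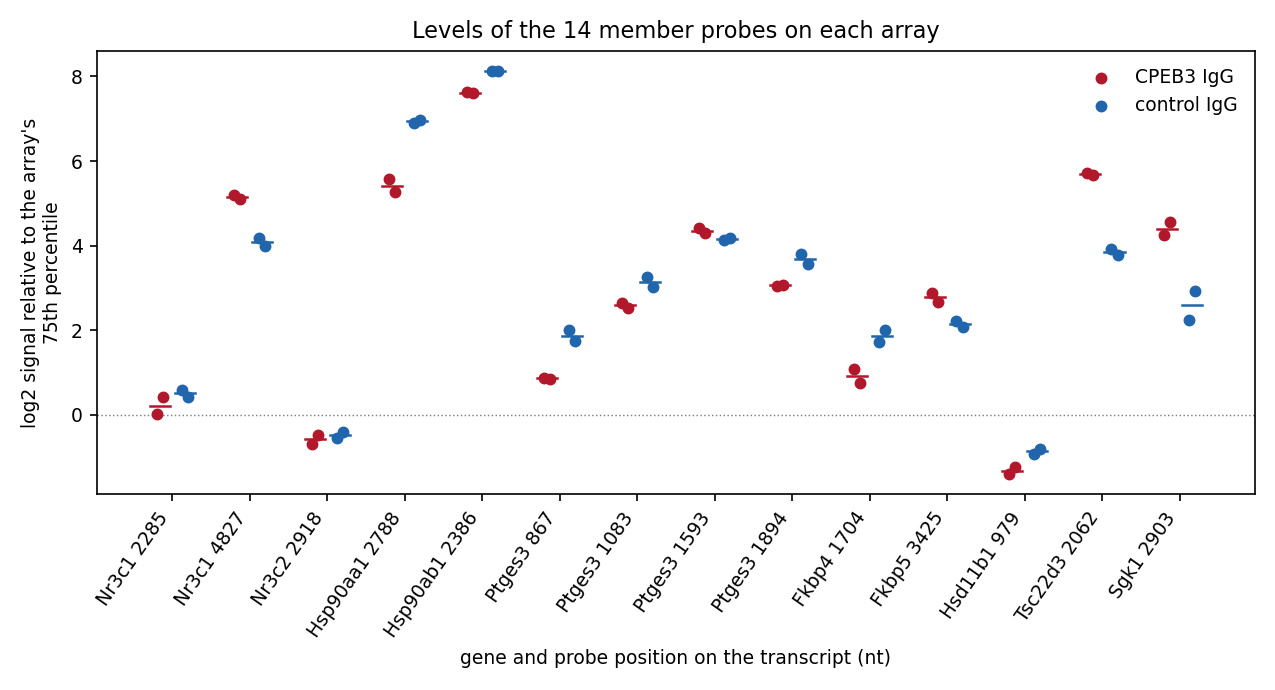
Level of each member probe on each array, as log2 of the signal relative to the array's 75th percentile (y axis), with CPEB3 IgG arrays in red left of control IgG arrays in blue; points are arrays (n = 2 each) and bars are means. Tsc22d3, Sgk1 and the distal Nr3c1 probe lie higher with CPEB3 IgG, Hsp90aa1 lies lower, and levels of different probes are not comparable.

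The values below are given as multiples of the array's 75th percentile of signal, which puts arrays of unequal brightness on 1 scale, and differences are log2 of CPEB3 IgG over control IgG. Brightness also depends on the probe, so levels are compared between arrays and not between probes.

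Nr3c1, the glucocorticoid receptor mRNA that the study's title names, was higher with CPEB3 IgG at its distal probe and not at its proximal one. The distal probe (chromosome 18, 39571641 to 39571700, minus strand) lies at position 4827 of the transcript, and its signal was 36.7 and 34.2 times the 75th percentile with CPEB3 IgG, against 18.03 and 15.98 times with control IgG. Both CPEB3 IgG arrays lay above both control IgG arrays, and the fold was 2.09 (95% interval 1.53 to 2.85, limma adjusted p = 0.0143). The proximal probe (39574183 to 39574242) lies at position 2285 and gave 1.005 and 1.339 times with CPEB3 IgG, against 1.497 and 1.344 times with control IgG. There the groups almost touched and the log2 difference was −0.29 ± 0.21 (SE, adjusted p = 0.345), a sign that turned with spike-in scaling (0.36) and vanished with median scaling. The call of the distal probe was lost when CPEB3 IgG replicate 1 (1.01), CPEB3 IgG replicate 2 (1.11) or control IgG replicate 2 (0.98) was left out and without scaling (1.03), with adjusted p between 0.0532 and 0.0935, and spike-in scaling raised the difference to 1.72.

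The difference between the Nr3c1 probes was itself tested, because both sit on the same accession and their ratio within an array does not depend on the array's brightness. The distal probe exceeded the proximal one by 5.19 and 4.68 on the log2 scale with CPEB3 IgG, against 3.59 and 3.57 with control IgG. The groups did not overlap, and the excess differed by 1.35 ± 0.24 (SE, adjusted p = 0.0195 over 4107 genes with such a pair). A shift of this direction was common on the array: 31.7% of the 4107 pairs were called with the distal probe more enriched and 3.17% with the proximal probe more enriched, and 76.4% lay above 0. The median shift was 0.50, with 5% of genes below −0.81 and 5% above 2.40, and Nr3c1 ranked 876 from the top. The call was lost without CPEB3 IgG replicate 1 (1.095, adjusted p = 0.0650), without control IgG replicate 1 (1.36, adjusted p = 0.0680) and without control IgG replicate 2 (1.34, adjusted p = 0.0637).

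By Euclidean distance over the 4 levels, the genes whose brightest probe lay nearest to the distal Nr3c1 probe were S100a16 (0.16), Rac1 (0.19) and Akirin2 (0.19). Rac1, for example, had log2 levels of 5.27 and 5.13 with CPEB3 IgG, against 4.22 and 4.16 with control IgG. With 4 arrays this nearness is a description of 4 values.

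Nr3c2, the mineralocorticoid receptor, showed no detectable difference at its only probe. Its probe (chr8:79766370-79766429, plus strand, position 2918) gave 0.62 and 0.72 times the 75th percentile with CPEB3 IgG, against 0.69 and 0.75 times with control IgG. The groups overlapped, which was so for no other member probe, and the difference came to −0.10 ± 0.17 (SE, adjusted p = 0.689). Its 95% interval (−0.57 to 0.37) ends below the 1.06 of the distal Nr3c1 probe at 4827. It overlaps that of the proximal Nr3c1 probe at 2285 (−0.86 to 0.28). Distal probes were more enriched in most genes with a pair, so probes at unlike positions do not compare the 2 receptor mRNAs as wholes. The difference between the receptors was not tested. The sign of the Nr3c2 difference turned with median scaling (0.19), with spike-in scaling (0.55) and without CPEB3 IgG replicate 1 (0.0080).

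The HSP90 mRNAs lay lower in the CPEB3 precipitate, and of the pair only Hsp90aa1, the stress-inducible form, passed the test. Hsp90aa1 (chr12:111929248-111929307, minus strand, position 2788) gave 47.7 and 38.4 times the 75th percentile with CPEB3 IgG, against 119 and 126 times with control IgG. Both CPEB3 IgG arrays were far below both control IgG arrays, and the mRNA was 2.86-fold lower (95% interval 2.02 to 4.05, adjusted p = 0.00868), ranking 2961 from the bottom of all probes. Its call was lost with spike-in scaling (−0.86, adjusted p = 0.321).

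Hsp90ab1, the constitutive form, gave 198 and 194 times the 75th percentile with CPEB3 IgG, against 280 and 280 times with control IgG (chr17:45704788-45704847, minus strand, position 2386). Replicates were close and the groups did not overlap, but the log2 difference of −0.52 ± 0.15 (SE, 95% interval −0.93 to −0.11) had an adjusted p of 0.0628. It passed with normexp (−0.49, adjusted p = 0.0472), with the filter on all arrays (adjusted p = 0.0468) and with an intensity trend (adjusted p = 0.0223), and turned to 0.14 with spike-in scaling. Its interval and that of Hsp90aa1 (−2.02 to −1.01) do not meet, while a test of the difference between the 2 genes was not made.

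Ptges3 encodes p23, which binds HSP90 in its closed state and stabilises the receptor complex, and 1 of its 4 probes was called lower while 3 were not called. The most proximal probe, at position 867 (chr10:127513224-127513297, plus strand), gave 1.83 and 1.80 times the 75th percentile with CPEB3 IgG, against 3.99 and 3.35 times with control IgG. It was the only Ptges3 probe that passed, 2.02-fold lower (95% interval 1.45 to 2.79, adjusted p = 0.0177). This call was lost with either CPEB3 IgG replicate left out (−1.02 and −0.997), with control IgG replicate 1 left out (−0.88), without scaling (−1.05), and with median (−0.72) or spike-in scaling (−0.36).

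At position 1083 the Ptges3 signal was 6.29 and 5.77 times the 75th percentile with CPEB3 IgG, against 9.50 and 8.05 times with control IgG (log2 difference −0.54 ± 0.18, SE, adjusted p = 0.0811). At position 1593, where the probe is brightest, it was 21.2 and 19.7 times with CPEB3 IgG, against 17.5 and 18.1 times with control IgG (0.20 ± 0.16, adjusted p = 0.374). At position 1894 it was 8.19 and 8.45 times with CPEB3 IgG, against 13.8 and 11.8 times with control IgG (−0.62 ± 0.17, adjusted p = 0.0540). The sign at 1593 was thus opposite to that of its neighbours on both sides, but its 95% interval (−0.22 to 0.62) holds 0, and this probe was not tested against the others. The excess of the most distal over the most proximal probe was 2.16 and 2.23 with CPEB3 IgG, against 1.79 and 1.82 with control IgG, a difference of 0.39 ± 0.16 (SE, adjusted p = 0.131) near the median of all pairs. With spike-in scaling the differences at 1083 and 1894 became 0.12 and 0.034. The probe at 1894 passed in 5 of 14 alternative settings and that at 1083 in 2.

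**Figure D2:**
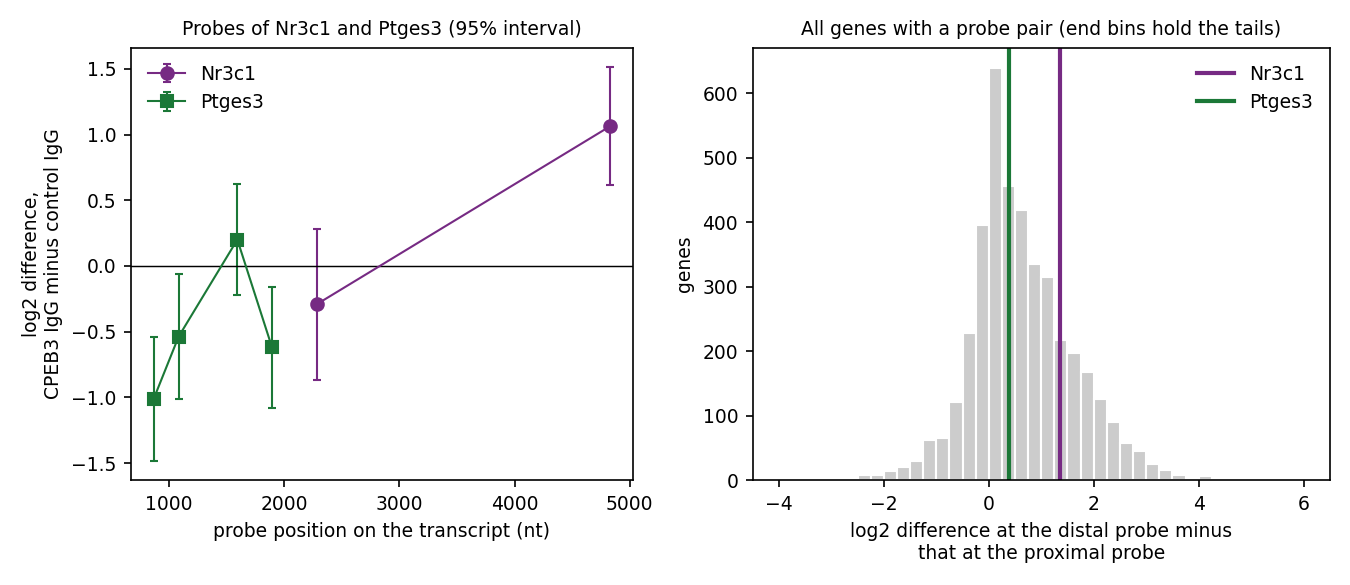
Left, the log2 difference of CPEB3 IgG minus control IgG (y axis, 95% intervals, 2 arrays a group) against probe position on the transcript for Nr3c1 and Ptges3; right, the number of genes by the difference at the distal minus that at the proximal probe, over 4107 genes, with Nr3c1 at 1.35 and Ptges3 at 0.39 as lines. The bulk of genes lies right of 0, and Nr3c1 lies within that bulk.

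The immunophilins stood on opposite sides at 1 probe each, and over all probes only Fkbp4 was called. Fkbp4, whose product FKBP52 favours receptor activity, gave 2.13 and 1.67 times the 75th percentile with CPEB3 IgG, against 3.30 and 4.04 times with control IgG (chr6:128380528-128380587, minus strand, position 1704). The groups did not overlap, and the mRNA was 1.94-fold lower (95% interval 1.29 to 2.90, adjusted p = 0.0337). This was the least stable of the member calls: it was lost without any 1 of the 4 arrays (−1.13 to −0.78), without the filter on dim probes (adjusted p = 0.0716), without scaling (−0.99), and with median (−0.66) or spike-in scaling (−0.30).

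Fkbp5, whose product FKBP51 lowers hormone binding, gave 7.31 and 6.40 times the 75th percentile with CPEB3 IgG, against 4.67 and 4.22 times with control IgG (chr17:28536060-28536119, minus strand, position 3425). Both CPEB3 IgG arrays lay above both control IgG arrays. The log2 difference was 0.62 ± 0.17 (SE, 95% interval 0.16 to 1.09), with an adjusted p of 0.0546 over all probes and 0.0455 over genes. The interval of Fkbp4 (−1.54 to −0.37) lies wholly below that of Fkbp5, and the difference between the 2 genes was not tested. Their probes lie at unlike positions, so they do not compare the 2 mRNAs as wholes. The sign of Fkbp5 was positive in all 14 alternative settings (0.47 to 1.28), and it passed in 5 of them.

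Tsc22d3 and Sgk1, which are induced by glucocorticoid, had the largest positive differences of the 14 probes. Fkbp5, also an induced gene, lay at 0.62, below the 1.06 of the distal Nr3c1 probe. Tsc22d3 gave 52.2 and 51.2 times the 75th percentile with CPEB3 IgG, against 15.2 and 13.8 times with control IgG (chrX:137074094-137074153, minus strand, position 2062). The replicates differed by far less than the groups, and the mRNA was 3.58-fold higher (95% interval 2.66 to 4.83, adjusted p = 0.00543), ranking 1610 from the top of 40616 probes. Its call held in all 14 alternative settings (log2 difference 1.77 to 2.50), the only member call that did.

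Sgk1, a kinase that acts on ion channels and transporters, gave 19.0 and 23.5 times the 75th percentile with CPEB3 IgG, against 4.76 and 7.66 times with control IgG (chr10:21719507-21719566, plus strand, position 2903). Its control arrays were the furthest apart of any member (SD 0.49 on the log2 scale), but the groups did not overlap. The mRNA was 3.50-fold higher (95% interval 2.02 to 6.07, adjusted p = 0.0155). The call was lost without CPEB3 IgG replicate 1 (1.96, adjusted p = 0.0667) or replicate 2 (1.66, adjusted p = 0.0769).

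Hsd11b1 gave 0.379 and 0.424 times the 75th percentile with CPEB3 IgG, against 0.529 and 0.569 times with control IgG (chr1:195048169-195048228, minus strand, position 979). The groups did not overlap, and the log2 difference of −0.45 ± 0.17 (SE, adjusted p = 0.102) did not pass. It turned to 0.20 with spike-in scaling. This probe is printed 10 times on the array, and the spots of an array varied by a coefficient of variation of 3.83% and 4.27% on the CPEB3 IgG arrays, against 4.75% and 3.11% on the control IgG arrays. This is the scatter of spots within an array and says nothing about the spread between precipitates.

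**Figure D3:**
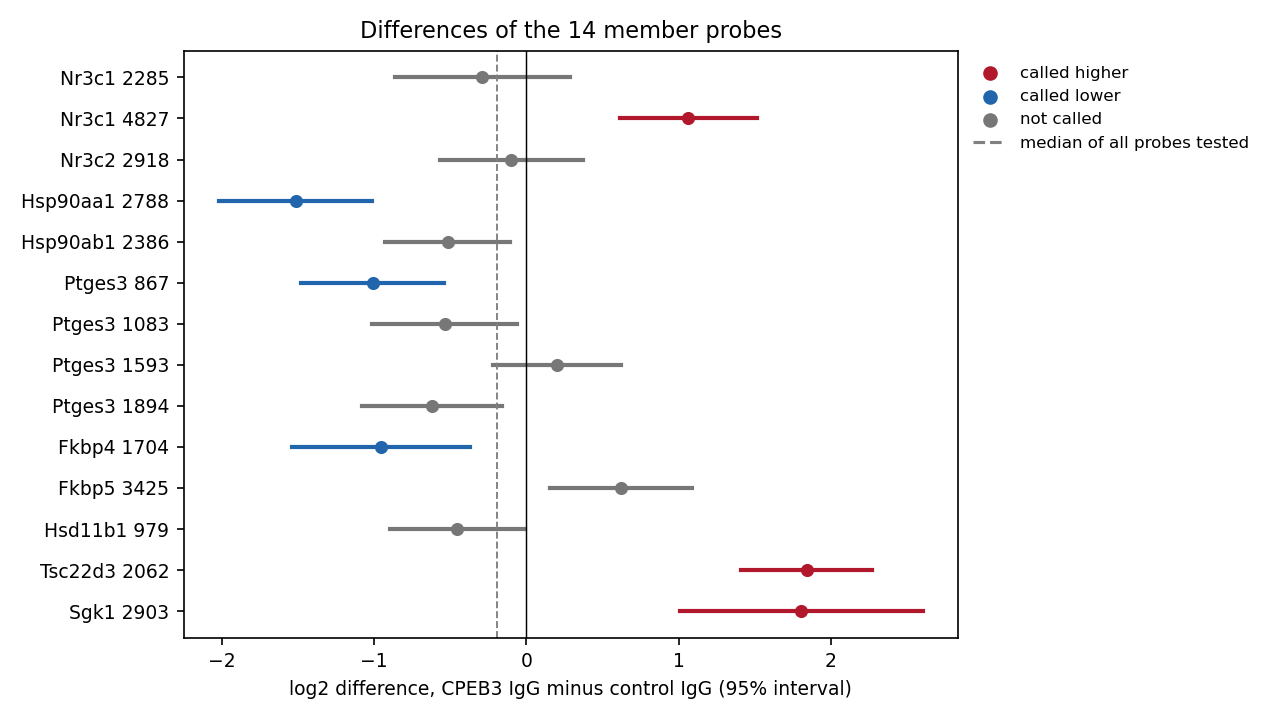
Log2 difference of CPEB3 IgG minus control IgG (x axis) for each member probe, with its 95% interval from the fit (2 arrays a group); red probes were called higher, blue lower and grey not called, and the dashed line is the median of all probes tested (−0.19). Tsc22d3, Sgk1 and the distal Nr3c1 probe lie right of 0, and Hsp90aa1 lies furthest left.

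The scaling between arrays bears on every direction above. Levels relative to the 75th percentile put the median of all probes at −0.19, median scaling moved it to 0.098 and spike-in scaling to 0.46, so 45.5%, 66.2% and 85.1% of the calls over the array were then higher. With spike-in scaling 0 member probes were called lower at an adjusted p under 0.05 by limma. These scalings add the same amount to every probe of an array, so a probe's distance from the median of all probes is the same under each of them by construction. The amount differs between arrays, so the scatter within a group changes too. The SE of Hsp90aa1 was 0.19 with the 75th percentile, 0.22 with median scaling, 0.46 without scaling and 0.56 with spike-in scaling. The parts of shift and scatter in a lost call were not tested. The spike-in RNA itself averaged a log2 signal of 13.1 in CPEB3 IgG replicate 1 and 13.4 in replicate 2, against 13.97 in control IgG replicate 1 and 13.95 in replicate 2.

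**Figure D4:**
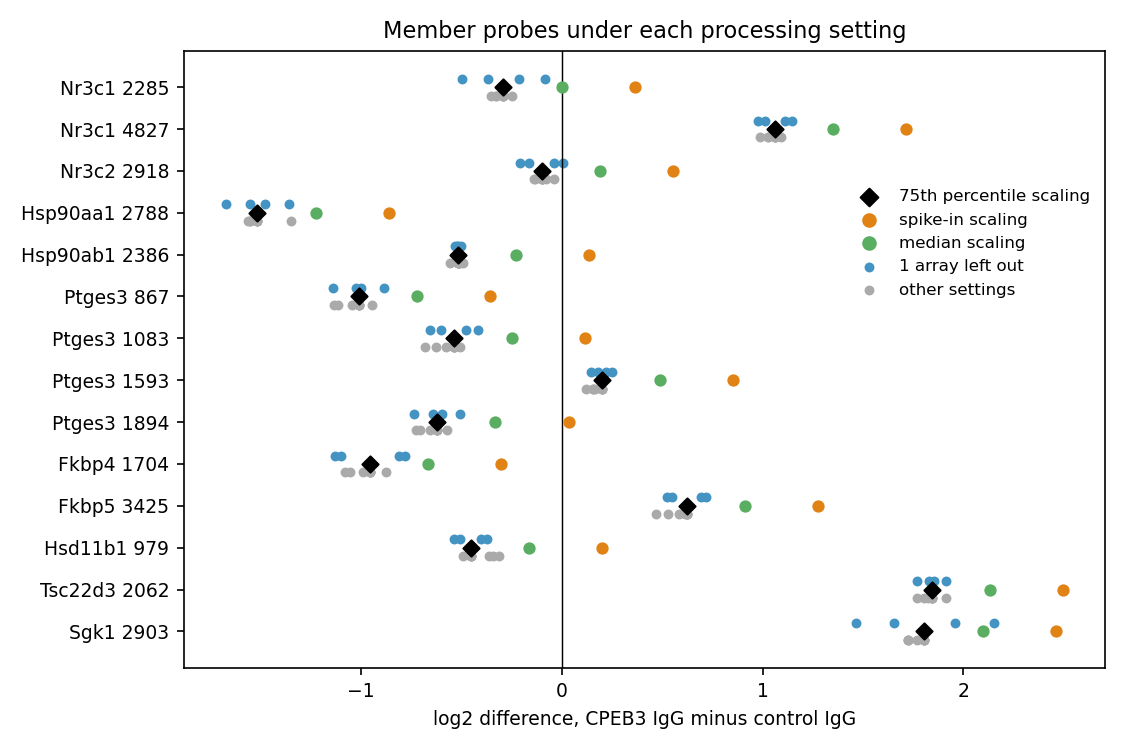
Log2 difference of CPEB3 IgG minus control IgG (x axis) of each member probe under the 75th percentile scaling (black diamonds), spike-in scaling (orange), median scaling (green), with 1 array left out (blue) and under the other settings (grey). Tsc22d3, Sgk1, Fkbp5 and distal Nr3c1 stay right of 0 and Hsp90aa1, Fkbp4 and Ptges3 at 867 stay left of 0 in every setting.

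Most genes listed as partners of HSP90 in its working cycle were lower, as Hsp90aa1 was. The list also holds Trap1 (−2.12), a mitochondrial HSP90, and the transcription factor Hsf1 (−0.62). These are not partners in that cycle, and both are among the genes called lower. Of 21 measured, 15 fell and 0 rose (limma, adjusted p under 0.05 over all genes, brightest probe of each), against 20.2% and 19.2% of all genes. At an unadjusted p under 0.05 by limma the counts were 16 and 0, but the share of all genes at that threshold was not computed. At the adjusted threshold median scaling gave 1 higher, Tsc1, named after its value was seen. The median log2 difference was −1.09 in the list and −0.14 over all genes. This list and those below were chosen with earlier results of these data known. Their counts against all genes therefore describe only the listed genes. The largest falls were in Hspa1a, the inducible HSP70 (−3.75 ± 0.34, SE), Hspa8, the constitutive HSP70 that hands the receptor to HSP90 (−2.56 ± 0.16), and Dnaja1, an HSP40 that loads it (−2.20 ± 0.16). All 3 probes of Hspa8 were called lower (−2.56 to −3.55), whereas a second, more distal probe of Dnaja1 was not (−0.60, adjusted p = 0.0626). Hspa1a lay at −2.33 with normexp and Dnaja1 at −1.40 with the mean of its probes. Over all 32 probes of these genes 21 were lower and 0 higher, where 18.9% and 15.8% of all probes were. Some of these probes share a gene, as the 3 of Hspa8 do, so they do not stand for separate genes. The 15 became 4 with spike-in scaling and 9 without CPEB3 IgG replicate 2.

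Of 22 coregulators of the receptors, 8 were higher and 5 lower, where 19.2% of all genes were higher and 20.2% lower, so the lower count is near the background. The median log2 difference was −0.047, against −0.14 over all genes. Ncoa3, a coactivator of the p160 family (2.28 ± 0.33, SE), Arid1a, a subunit of the SWI/SNF remodeller (2.16 ± 0.17), and the arginine methyltransferase Carm1 (1.67 ± 0.22) rose most, while the corepressor Trim28 (−2.34 ± 0.18), the remodelling ATPase Smarca4 (−1.67 ± 0.24) and Nrip1 (−1.26 ± 0.22) fell most. Other probes gave −0.061 for Ncoa3 (adjusted p = 0.893) and 0.84 for Nrip1 (adjusted p = 0.0376), and the mean of probes gave 1.11 for Ncoa3 and −0.21 for Nrip1, whose call it ended. Calls were lost without CPEB3 IgG replicate 2 for Carm1 (1.53) and Nrip1 (−1.20), and without CPEB3 IgG replicate 1 for Smarca4 (−1.56) and Nrip1 (−1.32). The lower count was 1 without CPEB3 IgG replicate 1, 2 without CPEB3 IgG replicate 2 (where 5 were higher), 3 without control IgG replicate 2 and 1 with spike-in scaling, which also ended the calls of Smarca4 (−1.02) and Nrip1 (−0.60).

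Of 22 other genes known to be induced by glucocorticoids, 7 were higher and 4 lower, where 19.2% of all genes were higher and 20.2% lower, so the lower count is near the background. The median log2 difference was 0.34, against −0.14 over all genes. Over all 30 probes of these genes 6 were higher and 7 lower, where 15.8% and 18.9% of all probes were. Their median was 0.036, against −0.19 over all probes tested. The excess of higher over lower calls was thus absent over all probes. Ddit4, an inhibitor of mTORC1 (2.47 ± 0.16, SE), the phosphatase Dusp1 (2.02 ± 0.16) and the clock gene Per1 (1.97 ± 0.19) rose most, as Tsc22d3 and Sgk1 did, while Sult1a1 (−2.62 ± 0.18), the cell cycle inhibitor Cdkn1c (−1.76 ± 0.18) and Rasd1 (−1.34 ± 0.28) fell most. The other Per1 probe was not called (0.077), and the mean of both was 1.02. Rasd1 lost its call without CPEB3 IgG replicate 1 (−1.12), CPEB3 IgG replicate 2 (−1.56) or control IgG replicate 2 (−1.07), and spike-in scaling ended its call (−0.68) and that of Cdkn1c (−1.11). The higher count was 4 without CPEB3 IgG replicate 2 and 11 with median scaling, and the lower count 2 without CPEB3 IgG replicate 1 and 1 with spike-in scaling.

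Of 12 measured genes of steroid supply and metabolism, 4 were higher and 1 lower, where 19.2% of all genes were higher and 20.2% lower. The median log2 difference was 0.13, against −0.14 over all genes. H6pd, which feeds cofactor to the Hsd11b1 enzyme, was higher (2.25 ± 0.15, SE), while Hsd11b1 itself was not called. Por, the electron donor of microsomal P450 enzymes (2.54 ± 0.17), and Abcb1b, an efflux transporter of the P-glycoprotein kind (1.12 ± 0.15), also rose, and Tspo fell (−2.12 ± 0.25). The call of Abcb1b was lost without CPEB3 IgG replicate 2 (1.05) and without scaling (1.08), and its value was 0.55 with normexp and 1.77 with spike-in scaling.

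**Figure D5:**
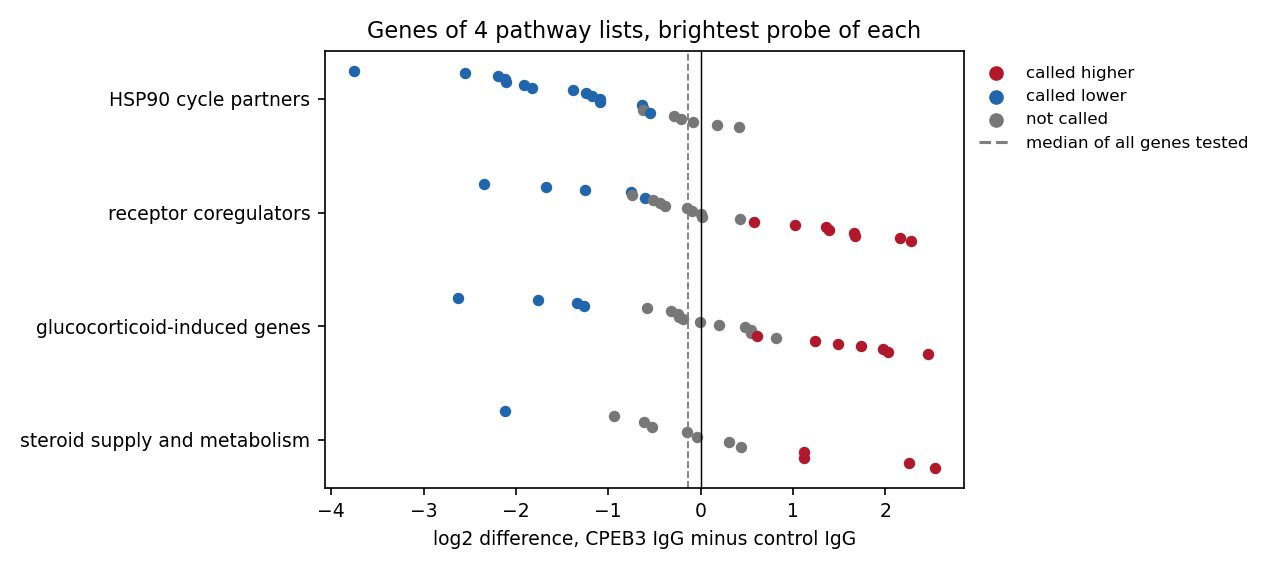
Log2 difference of CPEB3 IgG minus control IgG (x axis) for each measured gene of the 4 lists, by its brightest probe; each point is a gene, red called higher, blue called lower and grey not called, and the dashed line is the median of all genes tested (−0.14). The HSP90 cycle partners lie mostly left of 0 and the other lists lie on both sides.

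The defining markers of the labelled tissue were present. Markers of neurons (5 of 5), forebrain excitatory neurons (6 of 6), astrocytes (4 of 4), oligodendrocytes (4 of 4), microglia (4 of 4) and endothelium (3 of 3) passed the background test on all 4 arrays. So did 2 of 3 cerebellar markers, 1 of which was higher with CPEB3 IgG, but 0 of 2 liver and 0 of 2 muscle markers. The 2 muscle markers did pass on at least 2 arrays and were tested (0 calls), while 0 liver markers were tested. With CPEB3 IgG 1 of the 5 neuron markers was higher and 2 lower (median log2 difference −0.38), 1 of the 4 astrocyte markers was higher and 1 lower, and 1 of the 4 microglia markers was lower, where 19.2% of all genes were higher and 20.2% lower. The forebrain, oligodendrocyte and endothelial markers had 0 calls by limma, and the part of these markers in the results was not tested. Across probes, which are not independent, the CPEB3 IgG replicates had a correlation of 0.986, the control IgG replicates 0.977, and arrays from different antibodies 0.925 to 0.939. All arrays were on 1 slide, and arrays of an antibody shared a part of it, so position and antibody cannot be told apart.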

How the data were processed

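RNA from CPEB3 IgG and control IgG precipitates was hybridised to 1-colour Agilent arrays (2 arrays each; 0.2 ug RNA per sample, amplified and labelled with Cy3, per the labels' protocols). The deposited intensity values come from Agilent Feature Extraction 10.5.1.1 and are background-subtracted and detrended within the array but not normalised between arrays, per the file headers. Coordinates are mm9, per the file headers.

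Flagged spots (123 to 223 per array) and control spots were left out. The log2 signal was averaged over spots of a probe and the array's 75th percentile subtracted (507 and 353 units with CPEB3 IgG, 443 and 425 with control IgG). Probes well above background on at least 2 arrays entered a moderated linear model (lmFit and eBayes of limma 3.58.1, R 4.3.3, without a block), with Benjamini-Hochberg adjustment over 40616 probes, 27687 genes (symbols updated through RefSeq for 2017 probes) or 4107 probe pairs at 0.05. A pair is the most distal minus the most proximal probe of an accession. The fit was tried on simulated data with the same scatter for every probe and few changed probes. That setting differs from these arrays, so it does not gauge false calls here. Members and lists were chosen with earlier results of these data known. The text names every member, up to 3 higher and 3 lower genes of a list by size of difference, and the 3 genes nearest to Nr3c1. Tsc1, Trap1 and Hsf1 are named outside this rule. Alternatives were no, median, spike-in, quantile and cyclic loess scaling, normexp with offset 50, other filters, an intensity trend, a replicate block, left-out arrays, stricter thresholds and the mean of a gene's probes. The settings for list counts and list genes were added after seeing the data. The number of arrays limits the precision.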

Additional observations from a re-analysis of the deposited data

How the results depend on the processing

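With 1 array left out, the counts ranged from 1 to 3 higher and 1 to 2 lower member probes, 1 to 3 higher and 1 to 2 lower member genes, 2347 to 4682 higher and 2077 to 5375 lower probes of the array, and 0 to 1 member probe pairs, and the Nr3c1 pair difference from 1.095 to 1.609. The lists then had 9 to 12 lower HSP90 partners, 5 to 7 higher and 1 to 4 lower coregulators, 4 to 6 higher and 2 to 4 lower induced genes, and 3 to 4 higher steroid genes. Without scaling, 1 member probe was lower, 2 member genes higher and 1 lower, 3937 probes higher, 3 coregulators lower and 2 steroid genes higher. Median scaling gave 1 lower member probe and 1 lower member gene, 4316 lower probes, 1 higher HSP90 partner, 3 lower coregulators and 11 higher induced genes. With it the proximal Nr3c1 probe (5.363e-05) and Nr3c2 (0.19) changed sign. Spike-in scaling gave 0 lower member probes and genes, 1096 lower probes, 4 lower HSP90 partners, 1 lower coregulator and 1 lower induced gene. It reversed the uncalled proximal Nr3c1 (0.36), Nr3c2 (0.55), Hsp90ab1 (0.14), Hsd11b1 (0.20) and Ptges3 at 1083 (0.12) and 1894 (0.034), and Nr3c2, at −0.21 to 0.0080 with 1 array left out, also reversed without CPEB3 IgG replicate 1. Lower member probes numbered 5 with quantile scaling, normexp or the filter on all arrays, and 6 with an intensity trend. Without the filter 1 member gene, 4702 probes and 3 coregulators were lower. At adjusted p 0.01, 1 member probe was higher and 1 lower, as were 1 and 1 member genes, 2735 and 2015 probes, with 0 pairs, 8 lower HSP90 partners, 5 higher and 2 lower coregulators and 2 lower induced genes. A 2-fold limit left 1 lower member gene and 3 lower coregulators, and the mean of probes 3 lower coregulators. With the replicate block Fkbp5 passed (0.62, adjusted p = 0.0495), so 4 member probes were higher, 2 steroid genes were lower and the Nr3c1 pair difference was 1.35. Across probes, replicate 1 minus replicate 2 of CPEB3 IgG correlated at 0.36 with replicate 1 minus replicate 2 of control IgG. The labels name no shared source, so whether the numbers pair the samples is not settled. Apart from the scalings, whose construction shifts all probes and changes the scatter within a group, and fewer arrays, the cause was not tested.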
